A study of Homo sapiens with 6 samples.

Results

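Transferrin (TF), the plasma protein that carries iron, and 9 further genes of hepatic iron handling were examined in human liver cancer cells: the transferrin receptors TFRC and TFR2, the ferritin subunits FTH1 and FTL, the hepcidin gene HAMP, HFE, the iron transporters SLC40A1 and SLC11A2, and ceruloplasmin (CP). The 10 genes were selected by their gene symbols from the 20332 genes of the deposited count table, with the values of transferrin in these samples already known. The differences between groups are therefore a description, given as levels and fold changes with their errors. No p-value is printed for any of the 10. Counts of calls, from the fit over all genes and its alternatives, are given and nothing is read from them. RNA was sequenced from Huh-7 cells, an established line of human hepatocellular carcinoma, that stably overexpressed RAC3, a small GTPase of the Rac family (3 samples), and from the corresponding negative controls (NC, 3 samples). Stable lines were made with lentivirus, and neither the construct of the controls nor the number of clones is given in the sources used here. The sources call the RNA samples independent but do not say that they came from separate cultures, so a p-value here measures the spread between these samples, which may be technical.

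Total counts on genes lay between 13855762 and 18199888 per sample, and levels are given as CPM, counts brought to one library size by edgeR's TMM method, when samples are compared. RAC3 itself had 35.6, 31.4 and 32.8 CPM in NC samples 1, 2 and 3 and 233, 240 and 225 CPM in RAC3 samples 1, 2 and 3, a 7.003-fold difference that held in each sample. The genotype labels of RAC3 samples 2 and 3 name RAC4 and RAC5 overexpression, and these samples were grouped by title. Of the hepatocyte markers, ALB, AFP, APOA1, APOA2, APOB, TTR, SERPINA1, FGB, HNF4A and GPC3, 10 of 10 passed the filter on low counts. At an adjusted p below 0.05 (edgeR), AFP, APOB and FGB were higher and APOA2, TTR and GPC3 lower in RAC3 samples. Over all genes tested, 13.3% were higher and 15.3% lower. APOA2 had a log2 fold change of -0.58. The part of these markers in the results was not tested. Together the markers had summed levels of 5450 to 5610 CPM in NC and 5283 to 5773 CPM in RAC3 samples. Markers of macrophages and blood cells summed to 2.15 to 3.46 CPM in NC and 2.62 to 4.25 CPM in RAC3 samples, with CD163 at 0 counts in all 6 samples. Endothelial and stellate markers summed to 42.0 to 45.9 CPM in NC and 37.1 to 39.7 CPM in RAC3 samples, most of it from COL1A1, and LYVE1 had 0 counts in 5 of the 6 samples.

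Liver cells make most of the transferrin in plasma, take up iron-loaded transferrin by endocytosis through transferrin receptors, store iron in ferritin and release it through ferroportin, the protein of SLC40A1. Hepcidin, the hormone encoded by HAMP, is secreted by hepatocytes and causes ferroportin to be degraded, and TFR2, HFE and bone morphogenetic protein (BMP) signalling sense iron and set its transcription. Inside the cell, iron regulatory proteins bind short RNA hairpins called iron-responsive elements, which blocks translation of ferritin and ferroportin when the element is at the start of the mRNA and stabilises the TFRC mRNA when it is at the end.

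These elements are shown because cellular iron acts on several of these mRNAs through them. The search asked for a bulged C, 5 stem bases, the loop CAGTG followed by A, C or T, and 5 bases that pair with the stem, G with U allowed, in the untranslated regions of GENCODE release 29 transcripts. It found a match in 121 of 19462 protein-coding genes (0.622%). Of the 10 genes, 5 had a match: FTH1, FTL and SLC40A1 in the 5′ untranslated region, TFRC with 4 matches in the 3′ untranslated region, and TF with 1 match. The TF match lies in a 3′ untranslated region that is part of a transcript of 20602 bases, whereas the deposited FPKM values imply a TF length of 1557 to 1662 bases, so its sequence is not shown. A match is a description of letters, and no match says only that these letters were not found. The RNA sequences are written as DNA on the strand of each gene, and the capitals mark the 6 loop bases.
FTH1, GRCh38 chr11:61967573-61967602, minus strand: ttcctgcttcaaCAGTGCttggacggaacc
FTL, GRCh38 chr19:48965335-48965364, plus strand: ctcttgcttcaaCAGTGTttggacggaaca
SLC40A1, GRCh38 chr2:189580660-189580689, minus strand: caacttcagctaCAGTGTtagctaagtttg
TFRC element 1, GRCh38 chr3:196050978-196051007, minus strand: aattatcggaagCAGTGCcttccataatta
TFRC element 2, GRCh38 chr3:196050574-196050603, minus strand: cattatcgggagCAGTGTcttccataatgt
TFRC element 3, GRCh38 chr3:196050509-196050538, minus strand: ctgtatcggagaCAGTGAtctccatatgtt
TFRC element 4, GRCh38 chr3:196050462-196050491, minus strand: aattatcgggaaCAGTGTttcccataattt

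Levels of different genes were compared per length, as the FPKM values that the authors deposited, and are quoted as mean ± SD of 3 samples. In the negative controls FTL, the ferritin light chain, was highest with 4944 ± 106 FPKM, followed by FTH1, the heavy chain with the ferroxidase centre, with 2627 ± 72.2 FPKM and TF with 735 ± 24.6 FPKM. FTL ranked 4 and TF 89 to 96 among all genes of a control sample. SLC40A1, at 58.1 ± 3.62 FPKM, and TFRC, the receptor that most dividing cells use, at 56.7 ± 1.45 FPKM, had overlapping ranges in the controls. SLC11A2, which moves iron out of endosomes, had 9.55 ± 0.410 FPKM and overlapped with TFR2, the receptor typical of hepatocytes, which had 8.64 ± 0.969 FPKM. HFE, HAMP and CP came last, with 3.31 ± 0.794, 1.90 ± 0.668 and 1.61 ± 0.626 FPKM and ranges that overlapped from each gene to the next.

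In the RAC3 samples the order of the 10 genes by mean FPKM was the same, and the spacing differed. FTL had 4793 ± 174, FTH1 2292 ± 89.7 and TF 498 ± 9.57 FPKM, with TF ranked 134 to 138 among all genes of a sample. SLC40A1 (63.5 ± 4.44 FPKM) and TFRC (61.9 ± 2.45 FPKM) again overlapped. SLC11A2, at 9.09 ± 0.696 FPKM, no longer overlapped with TFR2, at 4.81 ± 0.407 FPKM, and TFR2 now overlapped with HFE at 3.79 ± 0.896 FPKM. HAMP had 1.66 ± 0.460 and CP 1.24 ± 0.0409 FPKM.

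**Figure D1:**
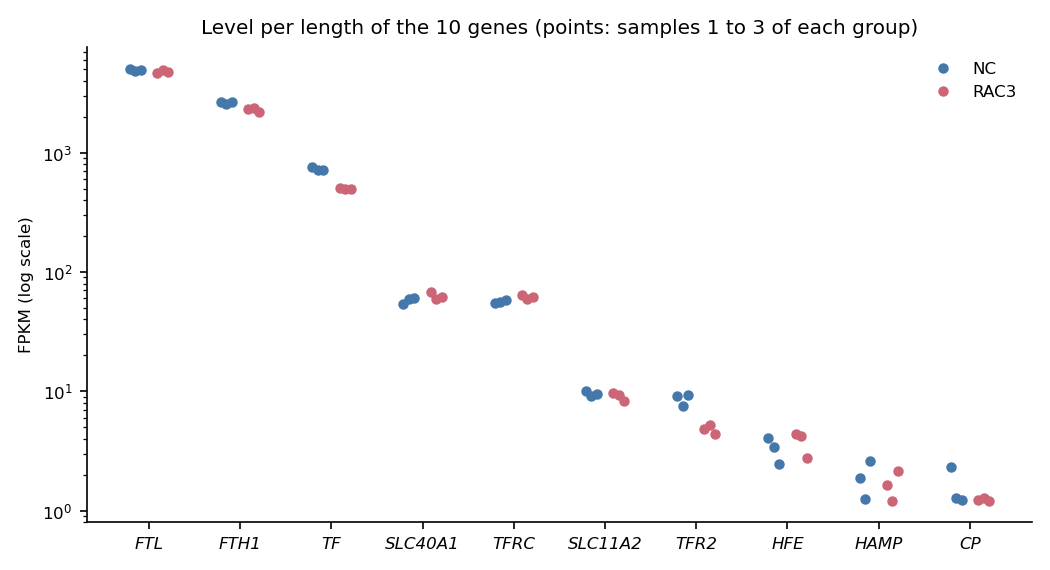
FPKM as deposited, on a log axis, for each of the 10 genes, with the 3 negative control samples in blue and the 3 RAC3 samples in red. The ferritin genes stand between 2189 and 5064 FPKM and TF between 493 and 763 FPKM, while HAMP and CP stand between 1.21 and 2.58 FPKM, and the colours separate without overlap for TF, TFR2, FTH1 and TFRC.

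Transferrin was lower with RAC3 overexpression. TF (ENSG00000091513; GRCh38 chr3:133745956-133796640, plus strand) had 1223, 1156 and 1141 CPM in NC samples 1, 2 and 3 and 825, 763 and 798 CPM in RAC3 samples 1, 2 and 3. The lowest control therefore lay above the highest RAC3 sample, and the gap between the groups was several times the spread within either. The log2 fold change, RAC3 minus NC, was -0.56 ± 0.0403 (SE; 95% interval -0.65 to -0.48), a 1.48-fold lower level, just short of the fold of 1.5 that the study used for its calls. In RNA of a whole culture, fewer cells that make a transcript and less of it per cell cannot be told apart. Of all counts on genes, TF took 0.112% to 0.119% in the controls and 0.0774% to 0.0846% in the RAC3 samples. Exons of SRPRB cover 112 (0.427%) and those of the pseudogene TFP1 191 (0.729%) of the 26199 annotated TF exon bases. Those bases include the transcript of 20602 bases, whereas the deposited values imply a TF length of 1557 to 1662 bases. The overlap as a share of that shorter length was not determined. SRPRB had 90.9 to 95.4 CPM in NC and 88.7 to 92.0 CPM in RAC3 samples.

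The promoter of TF is shown because TF is the carrier on which the group rests, beside that of TFRC, since both genes are known to respond to hypoxia-inducible factors, which bind DNA at the core letters ACGTG or GCGTG. RefSeq (GRCh38.p14) held promoter entries for 7 of the 10 genes. The 250 bases before each RefSeq start were searched on both strands, and capitals mark a match. Of 35116 promoters of this length, 18.5% held ACGTG, 32.2% held GCGTG and 43.2% held either. TF had none in either of its 2 entries, of which the one nearest the start of the annotated gene is printed, and TFRC had 1 ACGTG, which begins 88 bases before the start. The printed TF window lies inside the TF gene as GENCODE annotates it, and the first bases of none of the protein-coding TF transcripts searched were found in either RefSeq entry. Of the other genes, FTL had 3 matches, HFE 1 and SLC11A2 4 over its 4 entries, and HAMP and SLC40A1 had 0. No match says only that these letters are not in this window.
TF, GRCh38.p14 chr3:133746143-133746392, plus strand: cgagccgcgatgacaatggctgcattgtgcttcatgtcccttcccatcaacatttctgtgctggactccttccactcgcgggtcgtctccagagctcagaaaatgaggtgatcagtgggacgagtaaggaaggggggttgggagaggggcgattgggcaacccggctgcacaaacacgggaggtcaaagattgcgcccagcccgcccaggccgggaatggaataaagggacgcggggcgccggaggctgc
TFRC, GRCh38.p14 chr3:196082091-196082340, minus strand: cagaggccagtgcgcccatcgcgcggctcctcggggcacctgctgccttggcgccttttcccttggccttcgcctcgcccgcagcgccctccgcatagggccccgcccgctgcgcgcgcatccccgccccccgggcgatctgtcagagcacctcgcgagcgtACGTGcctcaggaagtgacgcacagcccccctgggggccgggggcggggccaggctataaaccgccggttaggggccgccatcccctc

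Most listed genes induced by low oxygen were lower in the RAC3 samples. Of a list of 14 hypoxia-inducible genes, written with their lower level in these data known, 13 were tested and 12 were lower in RAC3 samples at an adjusted p below 0.05, beside 15.3% of all genes tested. Because that lower level was known beforehand, nothing is read from this count. The list's median log2 level relative to each gene's mean in the controls was 0.31, -0.02 and -0.24 in NC samples 1, 2 and 3 and -0.54, -0.50 and -0.49 in RAC3 samples 1, 2 and 3. Its summed level was 3176 to 3789 CPM in the controls and 2553 to 2579 CPM in RAC3 samples. CA9, a carbonic anhydrase, went from 4.18 ± 0.0987 to 0.716 ± 0.178 CPM, and VEGFA, an angiogenic growth factor, from 148 ± 29.5 to 107 ± 1.09 CPM. NC sample 1 had the highest value of this list and of TF, and without it the log2 fold change of TF was -0.53. Among the RAC3 samples, sample 1 had the highest TF (825 CPM) and the lowest median of the list (-0.54). The part of these genes in the TF difference was not tested.

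The transferrin receptors differed from each other. TFRC (ENSG00000072274; GRCh38 chr3:196027183-196082189, minus strand), whose product brings transferrin-bound iron into most cells, had 284, 283 and 296 CPM in NC samples 1, 2 and 3 and 315, 293 and 301 CPM in RAC3 samples 1, 2 and 3. The groups overlapped in CPM but not in FPKM, where RAC3 samples were higher, and the log2 fold change was 0.08 ± 0.0427 (95% interval -0.01 to 0.16). Its sign depended on the scaling: it was 0.13 with library size alone, and -0.06 after each library's trend with GC content was removed.

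TFR2 (ENSG00000106327; GRCh38 chr7:100620416-100642779, minus strand), which senses transferrin-bound iron at the hepatocyte surface and feeds the hepcidin pathway, had 29.01, 23.8 and 29.6 CPM in NC samples 1, 2 and 3 and 14.7, 16.1 and 13.5 CPM in RAC3 samples 1, 2 and 3. All RAC3 samples lay below all controls, including NC sample 2, the lowest control. The log2 fold change was -0.89 ± 0.102 (95% interval -1.11 to -0.68), a 1.86-fold lower level that rested on 357 to 531 counts per control and 191 to 265 counts per RAC3 sample. It was the furthest from 0 among the 10 genes.

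Ratios within a sample put these genes side by side without any scaling of libraries, but they do not remove a library's trend with GC content. With that trend removed, the log2 fold changes were -0.06 for TFRC, -0.71 for TFR2 and -0.49 for TF. TFRC over TFR2, in FPKM, was 6.10, 7.50 and 6.25 in NC samples 1, 2 and 3 (6.62 ± 0.770) and 13.4, 11.5 and 13.9 in RAC3 samples 1, 2 and 3 (12.9 ± 1.29). TF over TFRC, carrier to receptor, was 13.8, 12.8 and 12.4 in NC samples 1, 2 and 3 (13.0 ± 0.731) and 7.88, 8.22 and 8.04 in RAC3 samples 1, 2 and 3 (8.05 ± 0.174). Neither ratio overlapped between the groups. TFRC over SLC40A1, import receptor to exporter, was 0.978 ± 0.0410 in NC and 0.977 ± 0.0290 in RAC3 samples.

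The ferritin subunits, which co-assemble into the shell that stores iron, were close to each other in direction and lower by less than TF. FTH1 (ENSG00000167996; GRCh38 chr11:61959718-61967660, minus strand) had 2358, 2299 and 2310 CPM in NC samples 1, 2 and 3 and 2023, 2076 and 2046 CPM in RAC3 samples 1, 2 and 3. The groups stood apart, and the log2 fold change was -0.18 ± 0.0335 (95% interval -0.25 to -0.11). FTL (ENSG00000087086; GRCh38 chr19:48965301-48966878, plus strand) had 4541, 4312 and 4330 CPM in NC samples 1, 2 and 3 and 3934, 4272 and 4083 CPM in RAC3 samples 1, 2 and 3. Its groups were separated only by the narrow gap between NC sample 2 and RAC3 sample 2 and overlapped in FPKM, and its log2 fold change of -0.10 ± 0.0368 (95% interval -0.18 to -0.02) became -0.04 with library size alone and -0.0007 with the GC trend removed.

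FTL over FTH1 in FPKM was 1.90, 1.91 and 1.83 in NC samples 1, 2 and 3 (1.88 ± 0.0420). It was 1.98, 2.12 and 2.18 in RAC3 samples 1, 2 and 3 (2.09 ± 0.101). By FPKM the light chain made up more of the ferritin mRNA in each RAC3 sample than in any control. The FTH1 length that the deposited values imply was 852.5 to 888.9 bases in NC and 887.6 to 951 bases in RAC3 samples. For FTL it was 871 bases in each sample. The FPKM ratio therefore holds that length as well as the number of reads. Both genes together took 0.650% to 0.670% of the counts of a control and 0.611% to 0.644% of those of a RAC3 sample. GENCODE lists 25 FTH1 and 16 FTL pseudogenes, of which 0 have a value in the table, and how reads shared with them were counted is not given in the sources used here. BEST1 exons on the opposite strand cover 62.4% of the FTH1 exon bases, and BEST1 itself had 2.49 to 4.94 CPM.

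The hepcidin gene was near the limit of what this depth can show. HAMP (ENSG00000105697; GRCh38 chr19:35280716-35285143, plus strand) had 11, 8 and 21 counts in NC samples 1, 2 and 3 and 12, 8 and 12 counts in RAC3 samples 1, 2 and 3. In CPM these were 0.788, 0.533 and 1.17 for NC samples 1, 2 and 3 and 0.675, 0.486 and 0.851 for RAC3 samples 1, 2 and 3, with overlapping groups. The log2 fold change of -0.34 ± 0.448 had a 95% interval from -1.28 to 0.59, and it was 0.01 without NC sample 3, so a difference of up to that interval could not be detected at this depth.

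HFE (ENSG00000010704; GRCh38 chr6:26087281-26098343, plus strand), the haemochromatosis protein that binds transferrin receptors, had 10.2, 8.86 and 6.58 CPM in NC samples 1, 2 and 3 and 7.99, 8.68 and 7.73 CPM in RAC3 samples 1, 2 and 3. The RAC3 samples lay inside the range of the controls. Its log2 fold change of -0.06 ± 0.158 (95% interval -0.39 to 0.27) was 0.08 without NC sample 1 and 0.0005 with library size alone.

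Of the iron transporters, SLC40A1 (ENSG00000138449; GRCh38 chr2:189560579-189583758, minus strand), ferroportin, the known route of iron out of cells, had 183, 201 and 204 CPM in NC samples 1, 2 and 3 and 222, 195 and 204 CPM in RAC3 samples 1, 2 and 3. RAC3 sample 1 was the highest and NC sample 1 the lowest, with the other samples mixed, and the log2 fold change was 0.08 ± 0.0541 (95% interval -0.03 to 0.19). SLC11A2 (ENSG00000110911; GRCh38 chr12:50979401-51028566, minus strand) had 36.2, 35.2 and 35.3 CPM in NC samples 1, 2 and 3 and 34.3, 31.5 and 31.4 CPM in RAC3 samples 1, 2 and 3. All RAC3 samples lay below the controls in CPM but not in FPKM, and the log2 fold change of -0.13 ± 0.0711 had a 95% interval from -0.28 to 0.01.

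Ceruloplasmin, the plasma copper protein that oxidises iron for loading onto transferrin, was low in these cells. CP (ENSG00000047457; GRCh38 chr3:149162410-149222055, minus strand, as TF and TFRC on chromosome 3) had 6.16, 4.66 and 4.57 CPM in NC samples 1, 2 and 3 and 3.77, 5.34 and 3.90 CPM in RAC3 samples 1, 2 and 3. The groups overlapped, with a log2 fold change of -0.23 ± 0.202 (95% interval -0.66 to 0.19). Exons of HPS3 on the opposite strand cover 19.4% of the CP exon bases, HPS3 had 26.4 to 35.5 CPM, and reads of the 2 genes cannot be told apart there if strand was not used in counting, which the sources used here do not state.

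**Figure D2:**
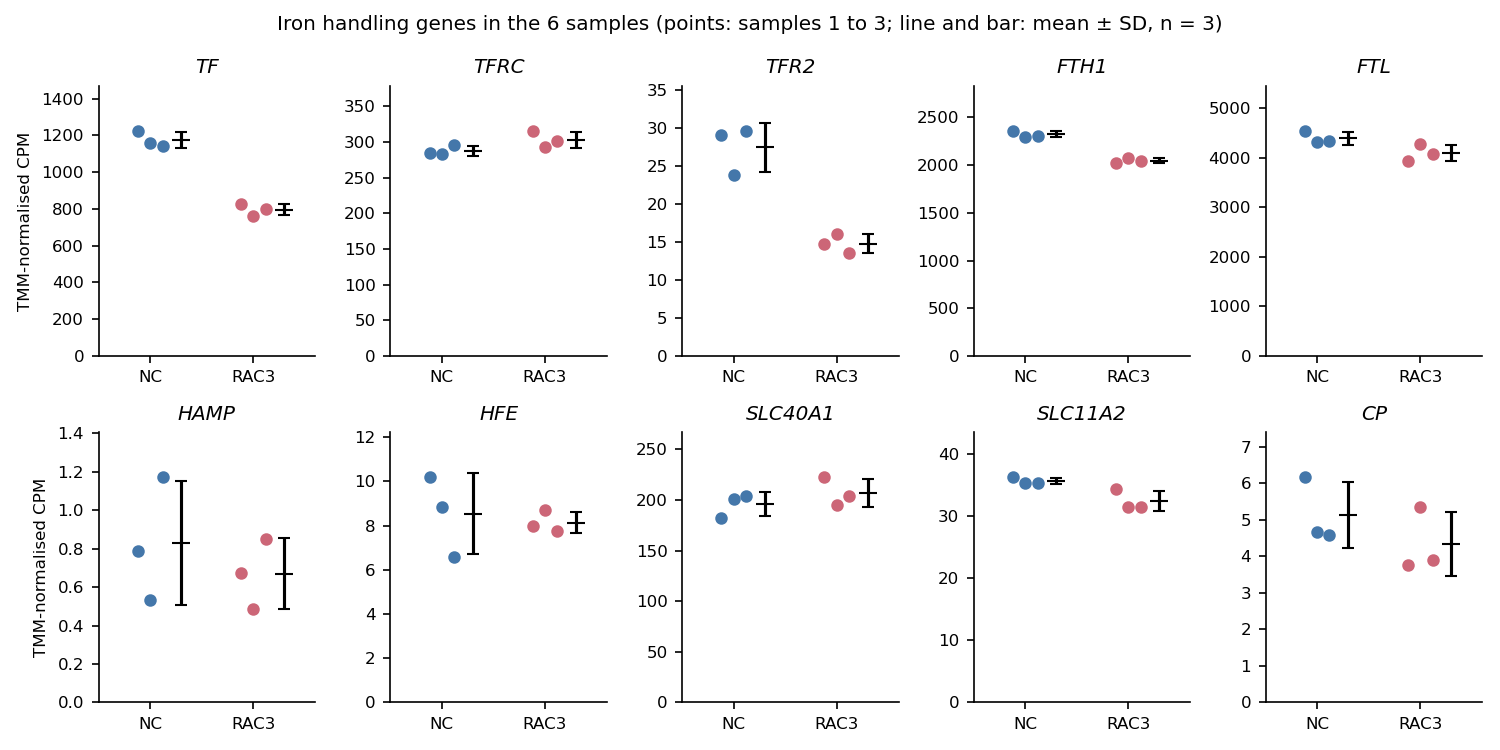
TMM-normalised CPM of the 10 genes on linear axes that start at 0, with one point per sample for NC (blue) and RAC3 (red) and the mean ± SD of 3 samples in black beside them. The points of TF, TFR2 and FTH1 separate by group, those of TFRC, HAMP, HFE, SLC40A1 and CP overlap, and FTL and SLC11A2 are separated by a narrow gap.

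Counted over the group, 10 of 10 genes passed the filter on low counts and were tested in the fit of 12941 genes. At the study's thresholds, a fold change above 1.5 and p below 0.05, 1 of the 10 was called, TFR2, which was lower, beside 4.68% of all genes tested called in either direction and 2.99% called lower. At an adjusted p below 0.05 (quasi-likelihood test of edgeR, Benjamini-Hochberg), 4 of the 10 were called, TF, TFR2, FTH1 and FTL, all lower, beside 28.5% of all genes called in either direction, 15.3% lower and 13.3% higher. In 5 of the 10 genes the groups did not overlap in CPM, beside 42.5% of all genes tested. The median log2 fold change was -0.16 over the 10 genes and 0.00 over all genes. The genes were chosen from this contrast, so nothing is read from these counts. With library size alone the adjusted calls were 3 lower (TF, TFR2 and FTH1) and 1 higher (TFRC), and with TF at 1.48-fold the count at the study's thresholds was 2 without NC sample 3 and 2 without RAC3 sample 1.

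**Figure D3:**
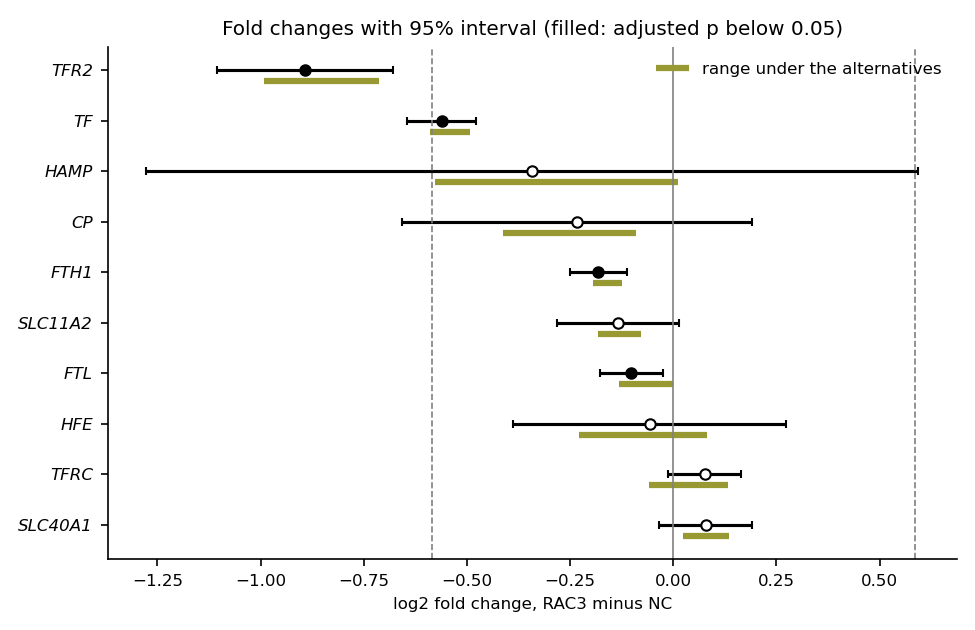
Log2 fold change, RAC3 minus NC, with its 95% interval for each of the 10 genes (filled circles for an adjusted p below 0.05) and, as a bar under it, the range under the other processing choices. Dashed lines mark a fold of 1.5 in either direction. TFR2 at -0.89 lies beyond the line, TF at -0.56 lies just inside it, and the interval of HAMP spans -1.28 to 0.59.

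By the smallest root mean square difference of log2 CPM over the 6 samples, after centring each gene, genes most like TF among 11220 with a mean of at least 50 counts included CLSTN3, FADS1, OLFM2 and MMP11. The difference was 0.0199 for CLSTN3, a calsyntenin, which had 259, 241 and 234 CPM in NC samples 1, 2 and 3 and 168, 158 and 164 CPM in RAC3 samples 1, 2 and 3. It was 0.0338 for FADS1, a fatty acid desaturase, 0.0347 for OLFM2 and 0.0374 for the metalloproteinase gene MMP11. These values describe likeness over the samples that also define the contrast.

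The question of how other genes of iron metabolism stood was addressed with 10 lists of 92 genes, none of them among the 10, written with earlier results of these data known. Of the 92 genes, 85 were tested, and 5 were higher and 18 lower in RAC3 samples at an adjusted p below 0.05, while 62 did not pass, beside 13.3% higher and 15.3% lower over all genes tested. The median log2 fold change was -0.03. With library size alone, under which the median of all genes was 0.06, the counts were 14 higher and 11 lower. At the study's thresholds 3 were lower (TMPRSS6, ATOH8 and PPOX) and 0 higher, and that count was 0 with library size alone, 0 with the GC trend removed and 0 without RAC3 sample 3. The adjusted count of 23 was 15 without RAC3 sample 3.

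Of the hepcidin regulators 7 were lower and 2 higher of 20 tested, beside 28.5% of all genes tested that were called in either direction, with a median log2 fold change of -0.12. TMPRSS6, the hepatocyte protease that cleaves the BMP co-receptor haemojuvelin, was at 12.6, 14.5 and 15.9 CPM in NC samples 1, 2 and 3 and at 11.4, 8.44 and 8.44 CPM in RAC3 samples 1, 2 and 3. The groups did not overlap, and the log2 fold change was -0.60 ± 0.136 (edgeR's quasi-likelihood test, adjusted p = 0.0027), and -0.41 with an adjusted p of 0.051 when the GC trend was removed. ATOH8, a transcription factor that BMP signals induce, was at 17.2 ± 1.07 CPM in NC and 11.2 ± 1.09 CPM in RAC3 samples (log2 fold change -0.62 ± 0.110, adjusted p = 0.00037 in edgeR). ID1, a known target of BMP signalling, fell from 1268 ± 62.9 to 999 ± 33.4 CPM (log2 fold change -0.34 ± 0.0411, adjusted p = 6e-06 in edgeR). SMAD6 and SMAD7, the inhibitory SMADs that BMP signals also induce and that were named after their values were seen, had log2 fold changes of -0.44 and -0.39. The signal transducer SMAD5 rose from 94.2 ± 2.64 to 109 ± 6.23 CPM (adjusted p = 0.0080 in edgeR). The receptors BMPR1A, BMPR2 and ACVR1, HJV and the ligand BMP6 did not pass the test, with log2 fold changes of 0.03, 0.09, 0.05, -0.34 and 0.09. The other genes of the list that passed were BMP2 and FURIN, lower, and STAT3, higher. With the GC trend removed, the log2 fold changes were -0.48 for ATOH8 and -0.22 for ID1. The part of BMP signalling in these differences was not tested.

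The iron regulatory proteins, which bind the hairpins printed above, were tested in 3 of 3 genes. IREB2, which encodes iron regulatory protein 2, rose from 76.3 ± 1.73 to 90.0 ± 1.51 CPM, higher in each RAC3 sample than in any control (log2 fold change 0.24 ± 0.0529, adjusted p = 0.0023 in edgeR). With the GC trend removed its log2 fold change was 0.13 and did not pass (adjusted p = 0.053 in edgeR). ACO1, the other iron regulatory protein, had a log2 fold change of 0.01 ± 0.0730, and FBXL5, which targets both for degradation, of 0.10 ± 0.0759, and neither passed.

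Of 3 tested genes of iron chaperones and ferritin turnover, 2 were lower, beside 15.3% of all genes tested. Both encode chaperones that deliver iron to ferritin. PCBP2 fell from 843 ± 44.2 to 652 ± 14.2 CPM (log2 fold change -0.37 ± 0.0414, adjusted p = 3e-06 in edgeR), and PCBP1 fell by 0.22 on the log2 scale. NCOA4, the receptor for ferritin breakdown, had a log2 fold change of 0.08 ± 0.0433 and did not pass, and FTMT did not pass the filter on low counts. Of 7 tested genes of iron reduction and transferrin-independent uptake, 1 passed, beside 28.5% of all genes tested called in either direction. This was SLC39A14, a zinc and iron importer, at 372 ± 7.85 CPM in NC and 404 ± 13.7 CPM in RAC3 samples (adjusted p = 0.036 in edgeR). It passed under 10 of 16 alternatives and not with a replicate block (adjusted p = 0.085 in edgeR), nor without NC sample 1, 2 or 3 or RAC3 sample 2 or 3 (adjusted p between 0.056 and 0.19 in edgeR). STEAP3, the endosomal reductase of the transferrin cycle, had a log2 fold change of 0.02 ± 0.0638. Of the 6 plasma carriers of iron and heme 3 were tested, albumin among them. Of these, 0 passed in edgeR's test, beside 28.5% of all genes tested, 0 in DESeq2 and 0 in limma-voom. At an unadjusted p below 0.05 there was 1 in edgeR's test, MELTF, which binds iron. The share of all genes at that unadjusted threshold is not given here.

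Copper loading genes, which serve ceruloplasmin, had 2 lower of 4 tested, beside 15.3% of all genes tested. These were SLC31A1 and the copper pump ATP7B, which went from 64.3 ± 3.20 to 55.4 ± 1.23 CPM (adjusted p = 0.012 in edgeR). ATP7B did not pass with library size alone, without NC sample 1 or without RAC3 sample 3 (adjusted p between 0.052 and 0.059 in edgeR). Heme synthesis had 3 lower of 8 tested in edgeR and in limma-voom, and 2 in DESeq2, beside 15.3% of all genes tested that were lower in edgeR. CPOX was the one with the smallest p (62.3 ± 4.31 and 49.9 ± 2.90 CPM in NC and RAC3 samples, adjusted p = 0.0016 in edgeR), and PPOX, at 6.38 ± 1.39 and 4.22 ± 1.13 CPM, passed the thresholds with overlapping groups (log2 fold change -0.59 ± 0.210, adjusted p = 0.043 in edgeR). PPOX passed at an adjusted p below 0.05 under 9 of 16 alternatives and not in DESeq2 (adjusted p = 0.063), with library size alone, with the GC trend removed, or without NC sample 1, NC sample 3, RAC3 sample 1 or RAC3 sample 3 (adjusted p between 0.059 and 0.20 in edgeR). The first enzyme, ALAS1, and ferrochelatase (FECH) had log2 fold changes of 0.08 and 0.05 and did not pass. Heme transport and breakdown had 2 lower of 8 tested, beside 15.3% of all genes tested. They were the heme transporter SLC48A1 (log2 fold change -0.40 ± 0.142, adjusted p = 0.039 in edgeR) and SLC46A1. Of this list DESeq2 called 0 lower and limma-voom 1, and heme oxygenase HMOX1 at -0.15 ± 0.0888 did not pass. SLC48A1 passed under 7 of 16 alternatives, and not without NC sample 2 or 3 or RAC3 sample 1, 2 or 3 (adjusted p between 0.057 and 0.21 in edgeR).

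Genes of iron-sulfur cluster assembly were mostly without a call, as were 9250 of all 12941 genes tested. Of 20 tested mitochondrial genes 1 was higher and 0 were lower, beside 13.3% higher and 15.3% lower over all genes tested. The median log2 fold change was 0.02. The higher gene was ISCA1 (log2 fold change 0.17 ± 0.0612, adjusted p = 0.049 in edgeR). ISCA1 passed under 6 of 16 alternatives, and not without NC sample 1, 2 or 3 or RAC3 sample 1 or 3 (adjusted p between 0.062 and 0.18 in edgeR). In DESeq2 and in limma-voom 0 genes of this list passed in either direction, and at an unadjusted p below 0.05 edgeR's test had 4 higher and 4 lower. The share of all genes at that unadjusted threshold is not given here, so nothing is read from this count. Of 9 tested cytosolic genes 2 were lower, beside 15.3% of all genes tested. These were CIAO2B and MMS19, the adaptor that hands clusters to DNA repair enzymes (73.4 ± 4.24 and 62.7 ± 1.19 CPM in NC and RAC3 samples, adjusted p = 0.0073 in edgeR).

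**Figure D4:**
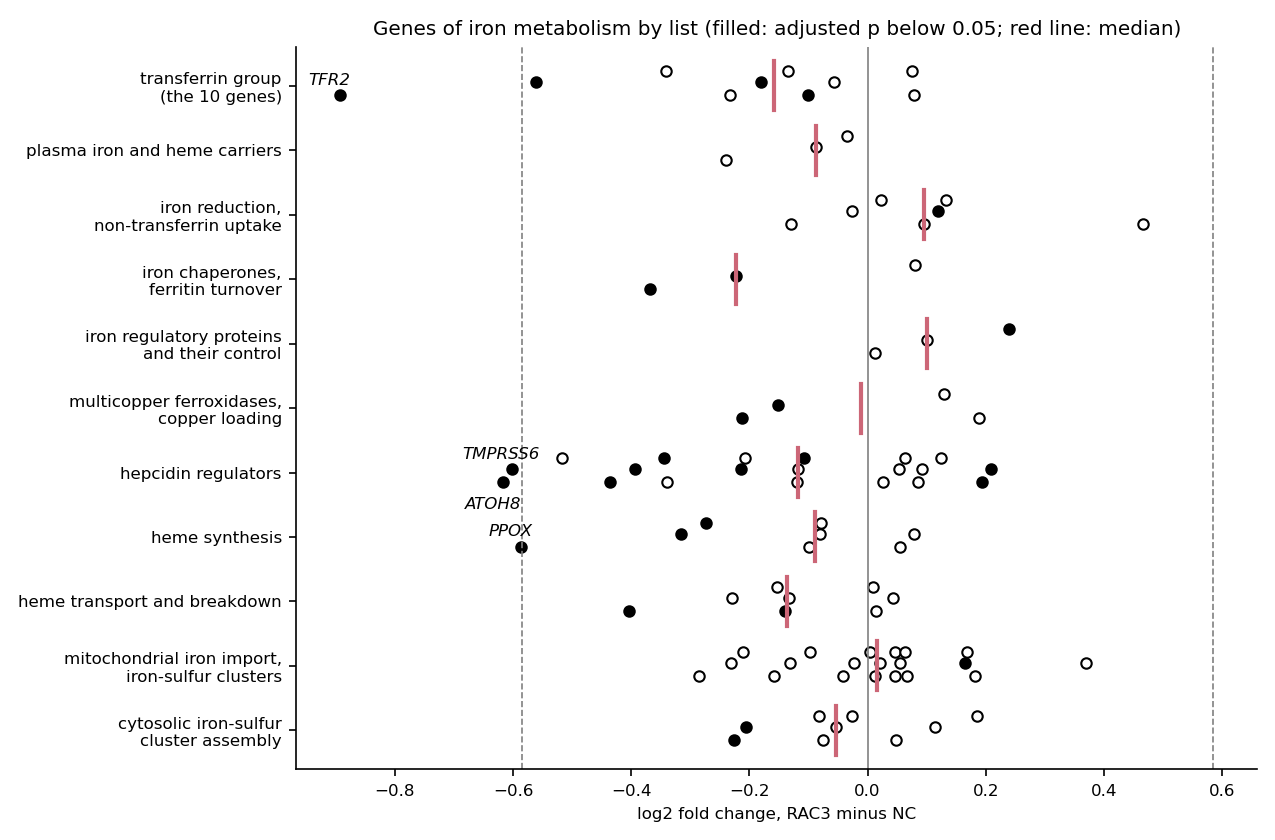
Log2 fold change, RAC3 minus NC, of each tested gene, with the 10 genes on top and the 10 lists of iron metabolism under them (filled circles for an adjusted p below 0.05, red lines for medians, dashed lines for a fold of 1.5). TFR2 and the named genes TMPRSS6, ATOH8 and PPOX pass the left line, and 0 genes pass the right line. Of the 85 tested genes of the lists, 18 are filled circles left of 0, beside 15.3% of all genes tested.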

How the data were processed

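The authors deposited 1 table with raw counts per gene and sample and FPKM values per sample and as group means; the group means were not used. Per the labels, polyadenylated RNA was sequenced, and the submitters' processing notes name Bowtie2 2.2.8, HISAT2, StringTie 1.3.1 and DESeq2 without roles; the genome build is not given in the sources used here. Samples were grouped by title. The 10 genes and all lists were chosen with earlier results of these data known. The counts entered edgeR 4.0.16 (R 4.3.3), where filterByExpr kept 12941 genes, TMM scaled the libraries, and the two-sided quasi-likelihood test was used without covariates, with Benjamini-Hochberg adjustment over all genes tested (biological coefficient of variation 0.0533). An exact permutation test of 3 against 3 cannot give a p below 0.10. Total counts were 13855762 to 18199888 per sample. The steps were tested on simulated data. GENCODE release 29 held 20113 of the gene identifiers, with 219 missing from it. The text names the 10 genes, of the pathway lists each gene past the study's thresholds and the gene with the smallest p in each direction per list, CA9 and VEGFA of the hypoxia list, and the genes most like TF among the first 5, except where an item is not reported here; other pathway genes were named after their values were seen, to complete a list. Alternatives were other scalings, DESeq2 1.42.0, limma-voom (limma 3.58.1), other filters, a replicate term, leaving out each sample, and removal of trends with GC content or length (lowess, span 0.3, 99.4% of tested genes with a value). FPKM values, made by the authors, were used for levels between genes and ratios.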

Additional observations from a re-analysis of the deposited data

How the results depend on the processing

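The log2 fold changes of TF (-0.59 to -0.49), TFR2 (-0.99 to -0.71) and FTH1 (-0.19 to -0.12) kept their direction under the 16 alternatives, as a description of genes chosen from this contrast, and FTL had an adjusted p below 0.05 under 7 of 16. Signs turned for TFRC (-0.0589 with the GC trend removed), HAMP (0.011 without NC replicate 3) and HFE (0.0005 with library size alone, 0.0824 without NC replicate 1); the cause was not tested. Over the samples left out, HAMP lay between -0.5779 and 0.011 and HFE between -0.2281 and 0.0824. Leaving out 1 sample gave 1 to 2 of the 10 genes past the study's thresholds, 3 to 4 with an adjusted p below 0.05, 0 to 4 pathway genes past the thresholds and 15 to 20 with an adjusted p below 0.05. Pathway genes past the thresholds were 0 with library size alone and 0 with the GC trend removed. Named pathway genes kept their call in 171 comparisons with an alternative and lost it in 37, and none turned. With the replicate number as a block, 1 of the 10 genes passed the thresholds, 3 had an adjusted p below 0.05 (FTL was lost), and 17 and 3 pathway genes passed the adjusted p and the thresholds. Same-numbered samples did not deviate together (correlations -0.094, -0.049 and -0.023), and the numbers were not taken as pairs. Over all genes, 605 passed the thresholds, of which 218 higher; with library size alone 611 passed, of which 296 higher. HAMP, at 8 to 21 counts, was not tested where at least 10 counts in each sample were asked for, and depth limits HAMP, CP and HFE most.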

Other observations

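The length implied by the deposited values, which is the counts divided by FPKM and by the library total, was nearly the same in each sample for FTL (871 bases) and TFR2 (3104 to 3131 bases), but it varied 1.64 times between samples for CP (2571 to 4217 bases) and 1.53 times for HFE (1858 to 2846 bases). CP in NC sample 1 therefore stood at 2.33 FPKM beside 1.21 to 1.29 FPKM in the other 5 samples, whereas in CPM it stood at 6.16 in NC sample 1 and 3.77 to 5.34 in the others, so NC sample 1 was the highest on both scales and further from the others in FPKM. FPKM differences of CP and HFE between samples thus hold a length that differs between samples as well as the number of reads. The cause was not tested.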
